A study of Mus musculus with 36 samples.

Results

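Cell cycle genes were followed through the early disease course of a mouse model of CLN2 disease, a neuronal ceroid lipofuscinosis in which the lysosomal protease tripeptidyl peptidase 1 is lost. The 10 genes were taken by name, as the genes named Mki67, Top2a, Cdk1, Ccna2, Ccnd1, Mcm2, Mcm3, Mcm5, Mcm6 and Cdkn1a, out of 55450 genes listed at 1 month, 53379 at 2 months and 54146 at 3 months, by name and not by a threshold on any value. RNA was sequenced from forebrain/midbrain (F/M) and cerebellum (Cb) of homozygous Tpp1-/- mice, whose Tpp1 gene was disrupted by gene targeting, and of unaffected control mice of the same age and line, at 1, 2 and 3 months with 3 libraries per group and 36 in all. The controls were wild type apart from replicate 3 at 1 month, which was Tpp1+/- in both regions. All mice of 2 months were male, whereas replicate 1 of each group at 1 month and replicate 3 of each group at 3 months were female. The question put to the data was whether glial activation at 3 months comes with a change in genes of dividing cells.

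A cell that divides first commits in G1, where cyclin D1 (Ccnd1) with its kinases releases the E2F factors, then copies its DNA with the MCM helicase, whose subunits Mcm2, Mcm3, Mcm5 and Mcm6 open the double helix, and then enters mitosis under cyclin A2 (Ccna2) and the kinase Cdk1. Mki67 coats mitotic chromosomes and is the usual mark of cycling cells, and Top2a untangles the copied DNA. Cdkn1a, known as p21, inhibits cyclin-dependent kinases and is switched on by p53. In the brain after weaning most neurons no longer divide, and the cells known to go on dividing are mainly oligodendrocyte precursors, progenitors of the subventricular zone and hippocampus and, under challenge, microglia and some astrocytes.

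The promoters of 5 starts are shown because the members differ in the control elements known for these roles. Late genes such as Mki67 and Top2a are known for CHR and CCAAT elements, replication genes for E2F sites and Cdkn1a for p53 sites. RefSeq promoters on GRCm38.p6 were found for 8 of the 10 members, with 2 starts for Cdkn1a. Ccna2 and Ccnd1 had no entry. Each sequence below holds the 250 bases before the start, 5′ to 3′, with the matches in capitals.

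Top2a, chr11:99024190-99024439, minus strand: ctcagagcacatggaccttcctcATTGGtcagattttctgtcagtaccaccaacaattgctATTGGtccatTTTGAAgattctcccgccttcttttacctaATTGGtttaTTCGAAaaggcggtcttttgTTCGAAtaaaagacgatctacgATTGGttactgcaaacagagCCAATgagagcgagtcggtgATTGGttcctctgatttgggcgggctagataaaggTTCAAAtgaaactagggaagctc
Mki67, chr7:135716380-135716629, minus strand: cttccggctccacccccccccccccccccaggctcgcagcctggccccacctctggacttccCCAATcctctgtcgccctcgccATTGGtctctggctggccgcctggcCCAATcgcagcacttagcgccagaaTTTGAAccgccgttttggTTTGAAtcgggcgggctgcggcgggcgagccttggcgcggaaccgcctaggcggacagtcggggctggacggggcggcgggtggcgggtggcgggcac
Mcm5, chr8:75109259-75109508, plus strand: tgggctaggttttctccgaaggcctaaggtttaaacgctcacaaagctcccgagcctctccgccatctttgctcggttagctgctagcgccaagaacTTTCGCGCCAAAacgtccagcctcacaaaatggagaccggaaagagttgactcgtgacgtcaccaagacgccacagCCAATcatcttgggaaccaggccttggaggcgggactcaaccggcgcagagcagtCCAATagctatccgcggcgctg
Mcm6, chr1:128359706-128359955, minus strand: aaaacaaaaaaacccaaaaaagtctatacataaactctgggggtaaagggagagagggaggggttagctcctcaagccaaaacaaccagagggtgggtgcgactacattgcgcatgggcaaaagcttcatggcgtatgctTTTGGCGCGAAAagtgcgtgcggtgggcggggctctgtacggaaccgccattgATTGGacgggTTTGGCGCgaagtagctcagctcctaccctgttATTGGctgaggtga
Cdkn1a, first start, chr17:29090729-29090978, plus strand: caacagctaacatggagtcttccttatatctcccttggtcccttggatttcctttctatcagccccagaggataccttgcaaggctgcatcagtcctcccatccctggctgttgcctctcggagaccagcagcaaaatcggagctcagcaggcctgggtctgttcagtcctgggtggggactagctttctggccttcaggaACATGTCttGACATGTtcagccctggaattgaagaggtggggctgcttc

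The search covered 250 bases before to 50 bases after each start, on both strands. TTTGAA or TTCGAA stood for CHR, CCAAT for the CCAAT box, TTTCCCGC, TTTGGCGC, TTTCGCGC or TTTGCCGC for E2F and ACATGTC for a p53 half-site, and no motif's letters are contained in another's. Top2a held 4 CHR and 6 CCAAT matches, Mki67 held 2 and 3, and Cdk1 held 2 CHR, 3 CCAAT and 1 E2F match. Mcm6 held 3 E2F matches, and Mcm3 and Mcm5 held 2 each, of which 2 of Mcm6 and both of Mcm5 overlapped each other. CCAAT matches were as frequent in these subunits, with 3 in Mcm3, 3 in Mcm5 and 2 in Mcm6. Mcm2 held 1 CHR and 1 CCAAT match, and the first start of Cdkn1a held 2 p53 half-site matches, with none of the 4 motifs at its second start. Over all 32851 promoters of this length, 19.2% held a CHR match, 37.4% a CCAAT match, 2.26% an E2F match and 2.01% the p53 half-site letters. A match is a run of letters and was not measured as a bound site.

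**Figure D1:**
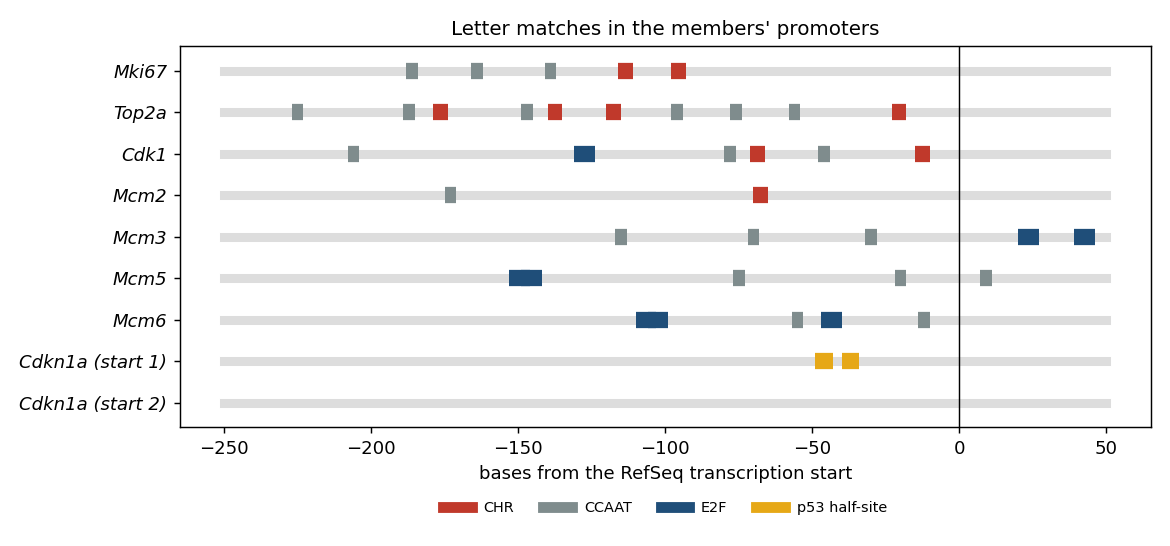
Positions of the letter matches in the promoters of the 8 members found, in bases from the RefSeq transcription start (vertical line). CHR matches (red) stood in Mki67, Top2a, Cdk1 and Mcm2, E2F matches (blue) in Cdk1, Mcm3, Mcm5 and Mcm6, and the p53 half-site letters (yellow) only at the first start of Cdkn1a.

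The library totals ran from 10609896 to 29942380 reads assigned to genes, with a median of 21049839. Tpp1 itself was lower in every Tpp1-/- library than in any control library of its age and region, by log2 changes of -2.12 to -1.31. The 7 forebrain markers summed to 335 to 427 CPM (counts scaled to library size with TMM) in F/M libraries and 9.71 to 16.9 in Cb libraries, and the 8 cerebellar markers to 214 to 289 CPM in F/M and 5215 to 6736 in Cb. All 10 members passed the filter on low counts at every age, but several were measured on few reads. Cdk1 was counted 3 to 26 times per library, Mki67 7 to 145 times, Top2a 12 to 140 times and Ccna2 32 to 106 times, against 566 to 1399 reads for Ccnd1. The 3 libraries of a group are described as biological replicates, and the p-values measure the spread between them. In whole tissue, fewer cells of a type and less RNA per cell cannot be told apart.

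**Figure D2:**
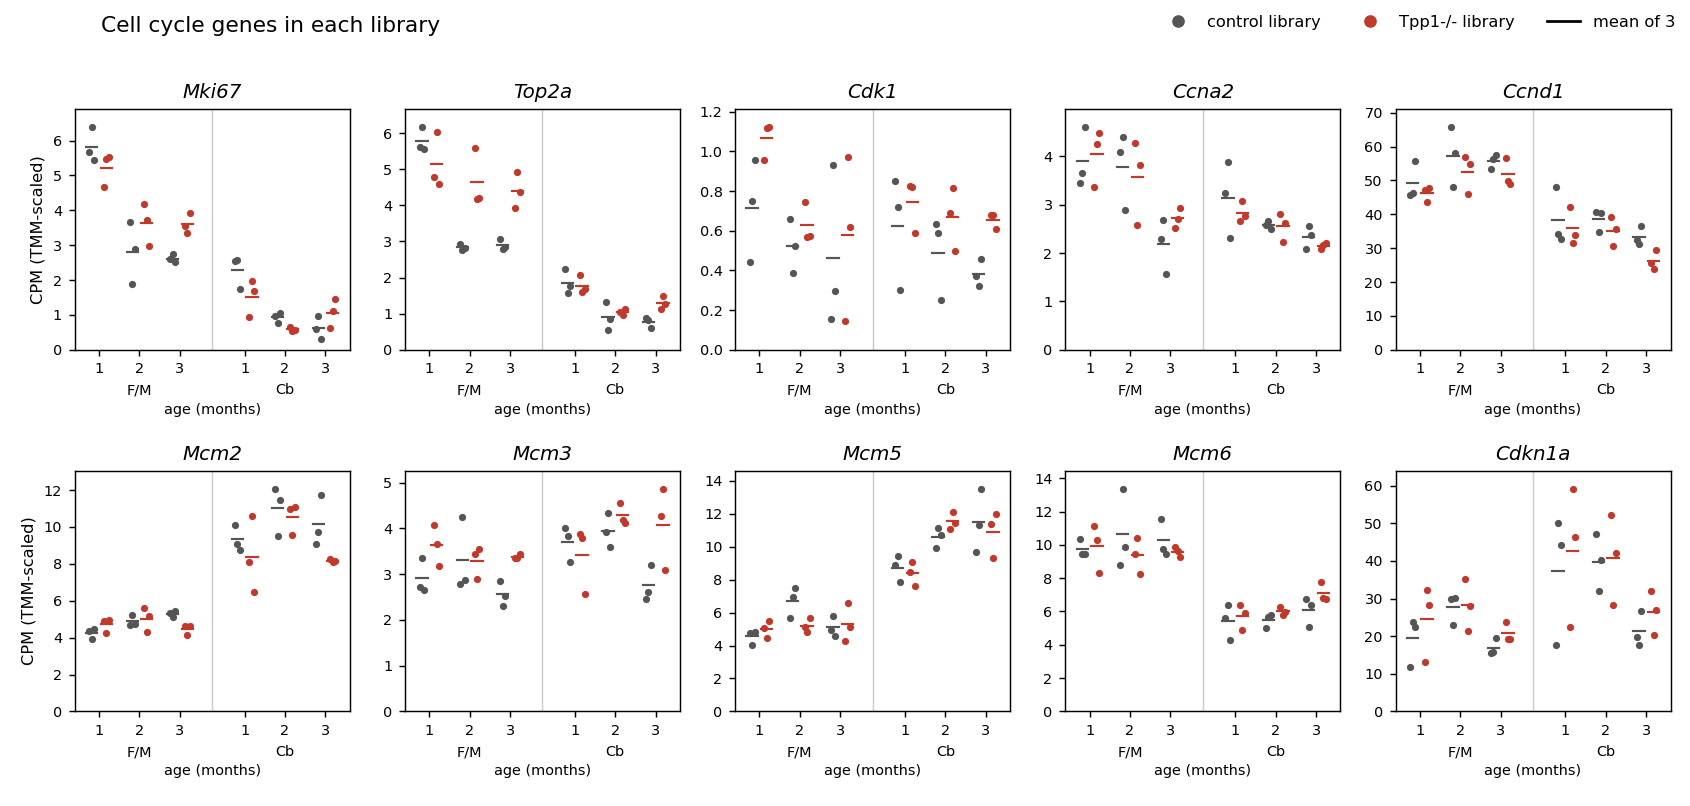
CPM of each member in each of the 36 libraries, by age and region, with a bar at the mean of 3. Control libraries of F/M held over 5 CPM of Mki67 and of Top2a at 1 month and under 4 CPM at 2 and 3 months, and the Tpp1-/- points of Top2a in F/M lay above the control points at 2 and 3 months.

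At 3 months, the age of the glial response, none of the 10 members passed the test in F/M or in Cb. A gene was called when its Benjamini-Hochberg adjusted p, over all genes tested, was under 0.1 and its change at least 1.5-fold, by edgeR's quasi-likelihood test, and 0.464% of 17224 genes were called in F/M and 0.859% in Cb. DESeq2 and limma-voom called none of the members either. At an unadjusted p under 0.05, 1 member passed in F/M (5.94% of all genes) and 4 in Cb (6.49%). The members' median log2 change was 0.31 in F/M and 0.27 in Cb, beside -0.00 over all genes in both regions. The libraries of control and Tpp1-/- mice did not overlap for 4 members in F/M and for 4 in Cb, against 24.1% and 8.67% of all genes.

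Top2a had the smallest adjusted p of the members in F/M and shared the smallest with Ccnd1 in Cb. Its levels in F/M were 3.06, 2.80 and 2.86 CPM in controls and 3.93, 4.92 and 4.37 CPM in Tpp1-/- mice. Each Tpp1-/- library was above each control, with a log2 change of 0.60 (SE 0.18, 95% interval 0.21 to 0.99) and an adjusted p of 0.353. When only the 6 F/M libraries were fitted, the change was 0.60 with an adjusted p of 0.0318 and Top2a was called, in a fit that called 309 genes in place of 80. In Cb the control libraries held 0.882, 0.826 and 0.592 CPM and the Tpp1-/- libraries 1.12, 1.48 and 1.27 CPM. Again the groups did not overlap, and the log2 change of 0.74 (SE 0.23, 95% interval 0.25 to 1.24) had an adjusted p of 0.350.

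Mki67 pointed the same way with a wider error. In F/M it measured 2.60, 2.74 and 2.51 CPM in controls and 3.54, 3.35 and 3.91 CPM in Tpp1-/- mice, groups that did not overlap, for a log2 change of 0.46 (SE 0.28, 95% interval -0.13 to 1.06, adjusted p = 0.982). In Cb it measured 0.603, 0.963 and 0.319 CPM in controls and 0.638, 1.10 and 1.46 CPM in Tpp1-/- mice. The highest control lay above the lowest Tpp1-/- library there, and the log2 change was 0.74 (SE 0.36, 95% interval -0.03 to 1.52, adjusted p = 0.780). Between 7 and 31 reads stood behind each of these Cb values, and leaving out 1 library at a time moved the change between 0.42 (without control replicate 3) and 1.19 (without control replicate 2). Both intervals reach past a log2 change of 1.

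Cdk1 and Ccna2 gave no common direction. Cdk1 in Cb rested on 8, 7 and 10 reads in controls and 17, 16 and 13 in Tpp1-/- mice, or 0.383 ± 0.0679 against 0.655 ± 0.0389 CPM (SD, n = 3), with a log2 change of 0.77 (SE 0.59, adjusted p = 0.941). In F/M its 3 to 18 reads per library spread over the same range in both groups, with a log2 change of 0.38 (SE 0.62). Ccna2 was 2.18 ± 0.557 CPM in F/M controls and 2.72 ± 0.206 in F/M Tpp1-/- mice, a log2 change of 0.33 (SE 0.20), and in Cb 2.34 ± 0.241 CPM against 2.15 ± 0.0669, a log2 change of -0.13 (SE 0.20), with overlap in both regions.

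None of the helicase subunits was called. Mcm3 was 2.85, 2.30 and 2.51 CPM in F/M controls and 3.35, 3.35 and 3.45 CPM in F/M Tpp1-/- mice without overlap (log2 change 0.40, SE 0.20, adjusted p = 0.861). In Cb it was 2.46, 2.61 and 3.19 CPM against 4.27, 4.87 and 3.10 CPM, where Tpp1-/- replicate 3 lay inside the control range (log2 change 0.57, SE 0.19, adjusted p = 0.413). Mcm2 had the opposite sign in both regions. It measured 5.35, 5.10 and 5.47 CPM in F/M controls against 4.66, 4.16 and 4.63 in Tpp1-/- mice, and 9.05, 9.72 and 11.8 CPM in Cb controls against 8.26, 8.08 and 8.17, with no overlap in either region and log2 changes of -0.24 (SE 0.14, adjusted p = 0.958) and -0.32 (SE 0.12, adjusted p = 0.630). Mcm5 and Mcm6 overlapped in both regions, with log2 changes between -0.10 and 0.23. The 4 subunits work as parts of 1 ring, and differences between them were not tested.

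Ccnd1, which was more abundant than Ccna2, the other cyclin among the members, was 55.7 ± 2.17 CPM in F/M controls and 51.8 ± 4.30 in F/M Tpp1-/- mice. In Cb the controls held 32.4, 31.1 and 36.4 CPM and the Tpp1-/- mice 25.6, 24.0 and 29.5 CPM. The Cb groups did not overlap, and the log2 change was -0.34 (SE 0.10, 95% interval -0.56 to -0.11, adjusted p = 0.350). It passed neither the adjusted p nor the 1.5-fold minimum. Cdkn1a, the brake among the members, averaged 16.9 ± 2.21 CPM in F/M controls and 20.8 ± 2.56 CPM in F/M Tpp1-/- mice. The Cb averages were 21.3 ± 4.67 CPM for controls and 26.5 ± 5.91 CPM for Tpp1-/- mice. Its log2 changes of 0.29 (SE 0.18) and 0.32 (SE 0.18) had adjusted p-values of 1.00 and 0.855, and the groups overlapped in both regions.

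**Figure D3:**
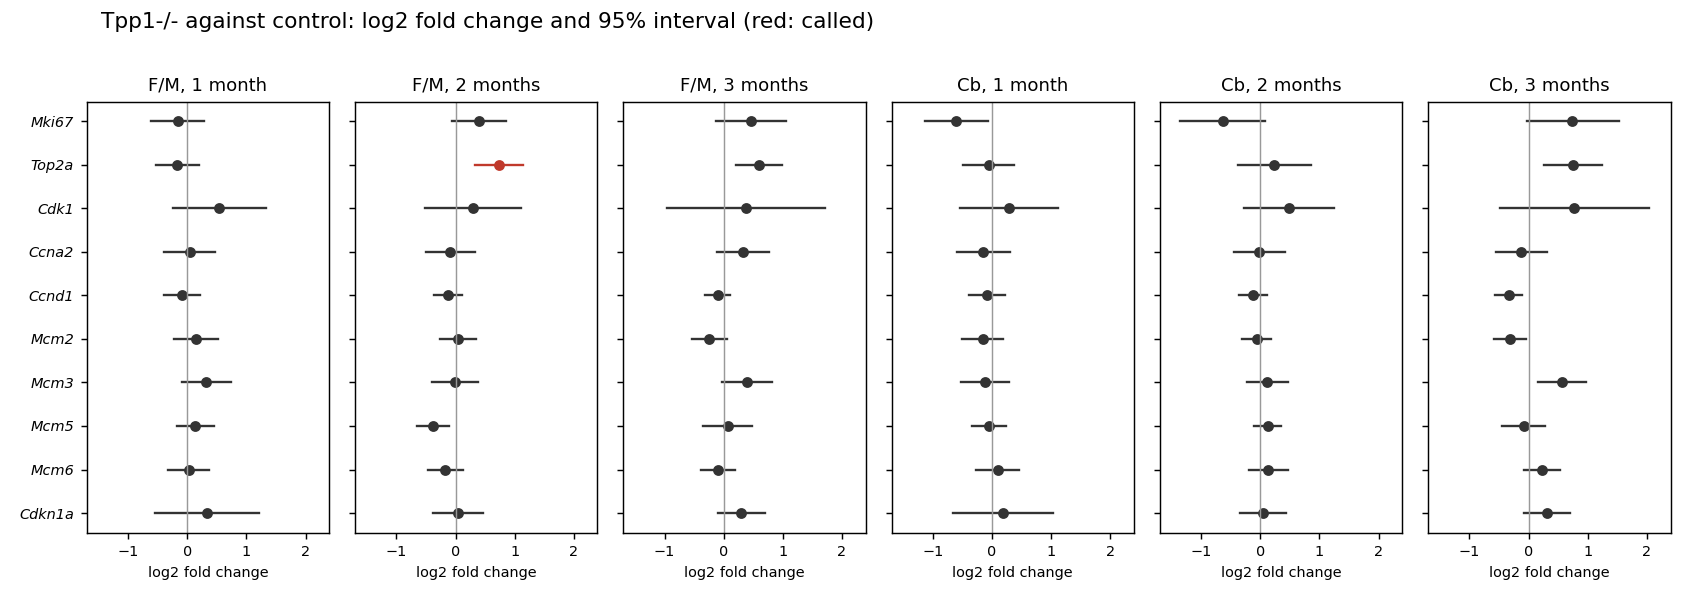
Log2 fold change of Tpp1-/- against control with its 95% interval for each member, in 6 comparisons. The 1 red interval is Top2a in F/M at 2 months, the only member called, and at 3 months the intervals of Top2a, but not those of Mki67 or Cdk1, lie above 0 in both regions.

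Many glial genes were called in the same libraries. Of the 11 genes of activated microglia, 7 rose in F/M and 7 in Cb, among them Itgax, an integrin, which went from 0.240 ± 0.177 CPM in controls to 5.03 ± 0.879 in Tpp1-/- mice of F/M and, in Cb, from 0.184 ± 0.00173 to 4.37 ± 0.606 CPM (adjusted p = 1.60e-05 and 5.66e-06). Of the 11 genes of reactive astrocytes, 4 rose in F/M and 7 in Cb, and Gfap, the intermediate filament of astrocytes, went from 172 ± 7.15 to 457 ± 36.4 CPM in F/M and from 179 ± 9.23 to 608 ± 108 CPM in Cb. Of 12 general microglial markers, 2 rose in F/M and 7 in Cb, with Tyrobp, an adaptor of microglial receptors, up 2.15-fold and 3.71-fold. No gene of these 3 lists was called lower. The median log2 changes of the lists were 0.38 to 1.44 in F/M and 1.07 to 2.05 in Cb, beside the members' 0.31 and 0.27. Cst7, Itgax, Clec7a, Ccl3 and Ccl4 of the activated microglia list had too few counts to be tested at 2 months. At 3 months Itgax passed the filter on low counts only through its Tpp1-/- libraries, where it was high. The counts and medians of that list are therefore not weighed against those of the members. That glial genes rise at 3 months was known from earlier results of these data, so these counts are no independent evidence of it.

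**Figure D4:**
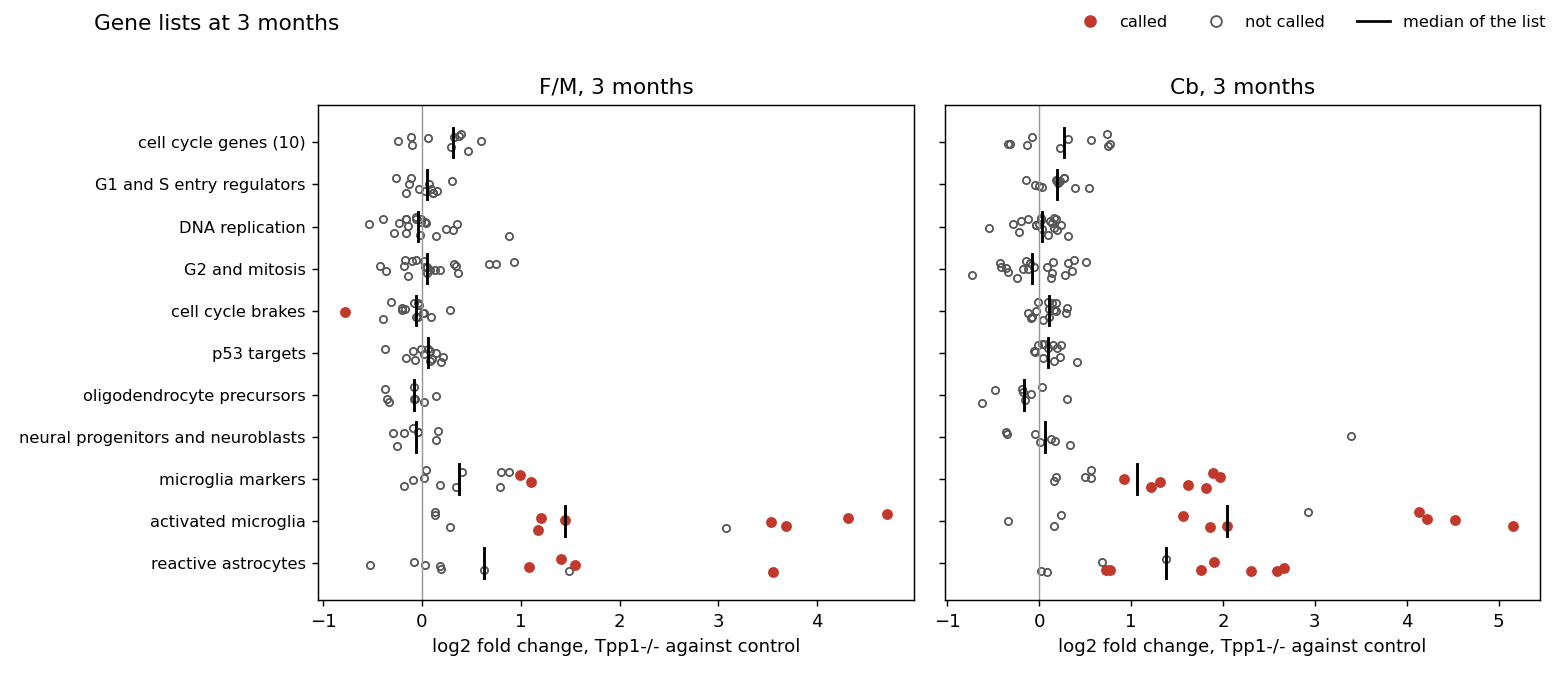
Log2 fold change of each tested gene at 3 months, by list, with filled red points for called genes and a bar at the median of the list. Called genes of the microglial and astrocytic lists reach past 4 and past 2 in log2 units in Cb, while 1 gene of the cell cycle lists is called, Btg2 in F/M. The far point of the progenitor list in Cb is Dlx2, at 0 reads in each control and 1 or 2 reads in each Tpp1-/- library.

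Wider lists of cell cycle genes, which leave out the members, held few calls. At 3 months none of the 20 DNA replication genes tested (of 22), none of the 20 genes of G2 and mitosis tested (of 24) and none of the 12 regulators of G1 and S entry was called in either region. Their median log2 changes were -0.04, 0.06 and 0.05 in F/M and 0.03, -0.08 and 0.20 in Cb. At an unadjusted p under 0.05, where 5.94% of all genes passed in F/M and 6.49% in Cb, 3 of the 20 mitotic genes passed in F/M, all higher, and 1 in Cb, lower. No gene of the other 2 lists passed in F/M. In Cb 1 DNA replication gene, lower, and 1 regulator of G1 and S entry, higher, did. The summed level of the G1 and S regulators in F/M was 228 to 240 CPM in controls and 246 to 250 CPM in Tpp1-/- mice, without overlap, and it overlapped in Cb. The genes of these lists with the smallest unadjusted p were Kif23 and Ccnb2 of mitosis in F/M, at log2 changes of 0.75 (SE 0.30, adjusted p = 0.715) and 0.68 (SE 0.30, adjusted p = 0.792), and Cdk6, a partner of D cyclins, in Cb at 0.54 (SE 0.22, adjusted p = 0.658). The mitotic kinesin Kif23 had a mean of 0.553 CPM in Cb controls and 0.591 CPM in Cb Tpp1-/- mice, with overlap between the groups.

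Among 17 brakes of the cell cycle, of which 15 were tested, Btg2 fell in F/M. Btg2 is an antiproliferative gene that is also known as a p53 target and as an immediate early gene, and it went from 34.0 ± 3.55 to 19.9 ± 0.476 CPM, a log2 change of -0.77 (SE 0.10, adjusted p = 0.00334). In Cb it was 18.7 ± 1.42 and 18.3 ± 1.06 CPM. The brakes summed to 395 to 406 CPM in F/M controls and 357 to 378 in F/M Tpp1-/- mice, and to 503 to 596 against 611 to 662 CPM in Cb, lower in F/M and higher in Cb, with no shared range in either. None of the 13 p53 targets was called in either region at 3 months, with medians of 0.06 in F/M and 0.09 in Cb beside the Cdkn1a values above. These targets summed to 501 to 518 CPM in F/M controls and 526 to 539 in F/M Tpp1-/- mice, higher without overlap, and their sums overlapped in Cb.

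Markers of the cells that normally divide in the brain did not pass the test either. None of 8 oligodendrocyte precursor markers and none of 8 progenitor and neuroblast markers was called at 3 months. The precursor markers summed to 286 to 306 CPM in F/M controls and 274 to 293 CPM in F/M Tpp1-/- mice, and to 143 to 153 against 131 to 142 CPM in Cb, where the groups did not overlap. Sox10, a factor of the oligodendrocyte lineage, had a log2 change of -0.48 (SE 0.10, adjusted p = 0.0368) in Cb, under the fold minimum. Beside the F/M values, the 8 cerebellar markers summed to 263 to 284 CPM in controls and 226 to 260 CPM in Tpp1-/- mice, with 3 of them lower at an unadjusted p under 0.05, and the 5 blood markers summed to 69.3 to 77.7 CPM in controls and 34.0 to 56.2 CPM in Tpp1-/- mice, and their part was not tested. Beside the Cb values, 3 of 7 forebrain markers and 3 of 5 blood markers had lower levels at an unadjusted p under 0.05, with list medians of -0.56 and -0.88, no call and overlapping sums, and their part was not tested. The 7 markers of midbrain and thalamus summed to 355 to 369 CPM in F/M controls and 260 to 306 in F/M Tpp1-/- mice at this age, with Prkcd called lower, and the part of this shift in the F/M values of the members was not tested beyond the fit with their score as a covariate, which called none of the members.

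At 2 months none of the tested genes of the 3 glial lists was called higher. All 12 general microglial markers, 6 of the 11 activated microglia genes and 10 of the 11 reactive astrocyte genes were tested, and Itgax was not. Serpina3n of the astrocytic list was called lower in Cb (log2 change -0.93, SE 0.16, adjusted p = 0.00156). Of the 12 general microglial markers, 11 had positive changes in F/M and 5 in Cb. In F/M, Gfap and the receptor Axl passed the adjusted p (0.0468 for both) at log2 changes of 0.31, under the fold minimum. The reactive astrocyte genes summed to 259 to 304 CPM in F/M controls and 317 to 345 in Tpp1-/- mice and the activated microglia genes to 98.8 to 107 against 110 to 125 CPM, without overlap. In Cb the reactive astrocyte genes summed to 344 to 355 CPM in controls and 369 to 402 in Tpp1-/- mice, also without overlap, whereas the sums of both microglial lists overlapped. Of the 10 members, 1 was called in F/M and none in Cb, where 0.737% and 2.05% of 17229 genes were called. The call was Top2a, which rose 1.66-fold. Its controls held 2.92, 2.75 and 2.83 CPM and its Tpp1-/- mice 5.58, 4.17 and 4.21 CPM, and the groups did not overlap (log2 change 0.73, SE 0.20, 95% interval 0.32 to 1.15, adjusted p = 0.0723). DESeq2 and limma-voom called it too, with adjusted p-values of 0.0650 and 0.0630. The call was lost when control replicate 2 or 3 or Tpp1-/- replicate 1 or 3 was left out, with log2 changes of 0.72, 0.73, 0.56 and 0.79 and adjusted p-values of 0.132, 0.205, 0.381 and 0.171. In Cb, Top2a was 0.905 ± 0.393 CPM in controls and 1.04 ± 0.0859 in Tpp1-/- mice.

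Marker genes of other tissue moved with that call. In the same F/M libraries of 2 months, 6 of 9 choroid plexus markers and 3 of 6 ependymal markers were called higher. The choroid plexus markers summed to 245 to 631 CPM in controls and 539 to 726 CPM in Tpp1-/- mice, the ependymal markers to 15.8 to 19.9 against 26.1 to 28.7 CPM, and the midbrain and thalamus markers to 246 to 325 against 333 to 358 CPM. Of the 8 oligodendrocyte precursor markers, which label the main dividing cells named above, 7 had positive changes and 4 of them an unadjusted p under 0.05, at a background of 16.9% of all genes. Lhfpl3 (log2 change 0.27, adjusted p = 0.0460) and Olig2 (0.41, adjusted p = 0.0772) passed the adjusted p under the fold minimum, and the list summed to 262 to 304 CPM in controls and 292 to 395 in Tpp1-/- mice, with overlap. The cerebellar markers En2 and Barhl1 were called higher. Of the 8 cerebellar markers 6 had positive changes, and the list summed to 214 to 252 CPM in controls and 240 to 254 in Tpp1-/- mice, with overlap. The forebrain markers summed to 398 to 427 CPM in controls and 335 to 372 in Tpp1-/- mice. The part of the ependymal, precursor, cerebellar and forebrain shifts in the Top2a value was not tested. A marker score, the mean log2 CPM of a list centred within region, was also entered into the model. With the choroid plexus score Top2a had a log2 change of 0.56 and an adjusted p of 0.229, and with the midbrain and thalamus score 0.70 and 0.154. Mki67 was called in those fits at 0.84 (adjusted p = 0.0830) and 0.86 (adjusted p = 0.0919). Without a covariate Mki67 of F/M was 3.67, 1.88 and 2.88 CPM in controls and 4.18, 3.72 and 2.96 CPM in Tpp1-/- mice, with overlap, and its log2 change was 0.39 (SE 0.22, adjusted p = 0.379).

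Other members of 2 months lay further from a call. Mcm5 in F/M went from 5.69, 6.95 and 7.49 CPM in controls to 5.13, 4.80 and 5.64 CPM in Tpp1-/- mice, with no overlap, although the lowest control and the highest Tpp1-/- library were close (log2 change -0.38, SE 0.13, adjusted p = 0.156). At an unadjusted p under 0.05, 2 members passed in F/M, Top2a and Mcm5 (16.9% of all genes), and none in Cb (9.67%). Groups did not overlap for 2 members in F/M (18.3% of all genes) and for 2 in Cb (18.1%). In Cb these were Mki67, at 0.978, 0.769 and 1.05 CPM in controls and 0.655, 0.545 and 0.562 in Tpp1-/- mice on 9 to 21 reads (log2 change -0.63, SE 0.34, adjusted p = 0.592), and Mcm6, at 5.48 ± 0.421 against 6.04 ± 0.243 CPM (log2 change 0.14, SE 0.15). Mcm2, Mcm3, Ccna2, Ccnd1 and Cdkn1a overlapped in both regions, with log2 changes between -0.13 and 0.12. Cdk1 overlapped in both regions too, at 0.523 ± 0.136 against 0.630 ± 0.102 CPM in F/M (log2 change 0.29, SE 0.38) and 0.490 ± 0.209 against 0.670 ± 0.160 CPM in Cb (log2 change 0.48, SE 0.36, adjusted p = 0.775), on 5 to 19 reads.

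In the wider lists of 2 months, 1 gene of G1 and S entry fell in Cb, E2f2, an E2F factor that drives S phase genes, from 0.810 ± 0.0480 to 0.316 ± 0.136 CPM (log2 change -1.38, SE 0.34, adjusted p = 0.0332) on as few as 5 reads. In these lists, which leave out the members and so Top2a, none of 20 DNA replication genes and none of 21 mitotic genes tested was called in either region. None of 16 brakes was called either. Of the 13 p53 targets, Eda2r, a receptor of the tumour necrosis factor family, rose in F/M from 0.166 ± 0.104 to 0.767 ± 0.0851 CPM, a control level that stands for few reads. These are the libraries whose choroid plexus, ependymal and cerebellar markers were given beside Top2a, and the part of those shifts in the Eda2r value was not tested. Phlda3, an inhibitor of Akt signalling, fell in Cb from 12.5 ± 1.44 to 7.49 ± 1.22 CPM (log2 change -0.73, SE 0.13), whereas in Cb at 1 month its log2 change was 0.71 (SE 0.16, unadjusted p = 0.000412, adjusted p = 0.630). Cdkn1a overlapped between genotypes, with F/M controls between 23.0 and 30.2 CPM and F/M Tpp1-/- mice at 35.3, 21.3 and 28.0 CPM. Controls of Cb averaged 39.8 ± 7.56 CPM, beside 40.9 ± 12.1 CPM for the Tpp1-/- group. In the progenitor and neuroblast list Sox11 fell and Cd24a rose in Cb, among libraries in which the midbrain and thalamus markers summed to 231 to 273 CPM in controls and 139 to 167 CPM in Tpp1-/- mice and 5 of 9 choroid plexus markers were called higher. Of the 7 midbrain and thalamus markers 3 were called lower, Tcf7l2 at a log2 change of -3.00, Shox2 at -5.55 on as few as 4 reads and Slc17a6 at -1.44. The forebrain marker Drd2 was called lower too, at -2.80, and the forebrain markers summed to 13.2 to 14.1 CPM in controls and 9.71 to 10.8 in Tpp1-/- mice. The ependymal markers summed to 32.3 to 34.7 CPM in controls and 37.8 to 39.8 in Tpp1-/- mice, without overlap. Of the 5 blood markers 2 were lower at an unadjusted p under 0.05 (9.67% of all genes), with a list median of -0.51 and overlapping sums. The part of these shifts in E2f2, Phlda3, Sox11 and Cd24a was not tested.

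At 1 month none of the 10 members was called in either region, nor by DESeq2 or limma-voom, at a background of 0.0112% of 17916 genes in F/M and 0.0112% in Cb. At an unadjusted p under 0.05 no member passed in F/M (1.89% of all genes) and 1 in Cb (7.66%). That member was Mki67, with 2.55, 2.57 and 1.74 CPM in controls and 0.939, 1.97 and 1.67 CPM in Tpp1-/- mice, where 1 control fell among the Tpp1-/- values (log2 change -0.60, SE 0.25, 95% interval -1.14 to -0.07, adjusted p = 0.630). Groups did not overlap for 1 member in F/M (14.8% of all genes), which was Cdk1 at 0.716 ± 0.258 against 1.07 ± 0.0942 CPM, and for 0 in Cb (7.97%). In the same F/M libraries 3 of 8 cerebellar markers had a lower level at an unadjusted p under 0.05 (median log2 change of the list -0.67, with Gabra6 at -2.74), and the ependymal markers summed to 24.1 to 29.2 CPM in controls and 19.9 to 23.0 in Tpp1-/- mice. The activated microglia genes summed to 88.5 to 92.5 CPM in F/M controls and 92.6 to 95.9 in F/M Tpp1-/- mice, adjoining ranges without overlap. Of the 12 general microglial markers, 4 passed an unadjusted p under 0.05 in F/M (1.89% of all genes) and 4 in Cb (7.66%), all higher. Their sums overlapped in F/M. There Trem2 had a log2 change of 0.59 (SE 0.12, unadjusted p = 0.000158, adjusted p = 0.706) and Tyrobp 0.55 (SE 0.15, unadjusted p = 0.00218), and neither was called. In the Cb libraries, 9 of 9 choroid plexus markers had positive changes (median log2 change 0.75) and 4 of them an unadjusted p under 0.05, as did 3 of 5 blood markers, all higher. The general microglial markers summed to 139 to 169 CPM in Cb controls and 173 to 190 in Tpp1-/- mice and the reactive astrocyte genes to 311 to 369 against 387 to 427 CPM, without overlap. The part of these shifts in the Cdk1 and Mki67 values was not tested. No gene of the 5 wider cell cycle and p53 lists was called at this age.

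Cdkn1a at 1 month differed more between mice than between genotypes. In F/M its libraries held 11.9, 23.8 and 22.5 CPM in controls and 13.2, 32.3 and 28.4 CPM in Tpp1-/- mice, and in Cb 17.7, 50.2 and 44.1 CPM and 22.5, 59.2 and 46.3 CPM. The lowest value of all 4 groups belonged to replicate 1, which was the female. At 3 months replicate 3 was the female. It was the highest library of F/M controls (15.5, 15.7 and 19.5 CPM) and of Cb controls (19.7, 17.7 and 26.6 CPM), the lowest of F/M Tpp1-/- mice (23.7, 19.4 and 19.2 CPM) and the middle one of Cb Tpp1-/- mice (32.1, 20.4 and 27.1 CPM). The log2 change of Cdkn1a at 1 month was 0.33 (SE 0.41) in F/M and 0.19 (SE 0.40) in Cb, and with sex as a covariate 0.32 and 0.21.

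The change of Mki67 in Cb ran from -0.60 at 1 month and -0.63 at 2 months to 0.74 at 3 months, and this was the largest difference between ages among the members. In a fit of all 36 libraries over 18322 genes, the effect at 3 months minus that at 1 month was 1.35 (SE 0.43, 95% interval 0.48 to 2.23, unadjusted p = 0.00360) and minus that at 2 months 1.38 (SE 0.50, unadjusted p = 0.00861). The adjusted p-values were 0.291 and 0.335, so neither difference passed, and both share the libraries of 3 months. Without 3-month control replicate 2 they were 1.80 and 1.82 and passed (adjusted p = 0.0947 and 0.0930), and without 3-month Tpp1-/- replicate 1 the first was 1.61 and passed (adjusted p = 0.0349), in a fit that passed 1590 genes in place of 84.

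Top2a had differences of 0.77 (SE 0.25, adjusted p = 0.569) between 3 months and 1 month in F/M and 0.81 (SE 0.31, adjusted p = 0.474) in Cb. Mcm3 in Cb had a difference of 0.69 (SE 0.25, adjusted p = 0.428). None of the 10 members passed in any of the 4 age comparisons, by edgeR, DESeq2 or limma-voom. At an adjusted p under 0.1, 0.393% and 0.153% of all genes passed in F/M and 1.44% and 0.458% in Cb, against 2 months and 1 month. At an unadjusted p under 0.05, 1 member passed between 2 and 3 months in F/M (8.12% of all genes) and 1 between 1 and 3 months (5.41%). In Cb 1 member passed between 2 and 3 months (6.41%) and 3 between 1 and 3 months (7.91%).

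The effect of the genotype was also compared between regions, and no member passed at any age, by edgeR, DESeq2 or limma-voom. At an unadjusted p under 0.05, 0 members passed at 1 month (1.94% of all genes), 2 at 2 months (11.5%) and 0 at 3 months (3.51%), and at an adjusted p under 0.1 0% of all genes passed at 1 month, 2.97% at 2 months and 0.00581% at 3 months. Those of 2 months were Mcm5, for which the Cb effect exceeded that of F/M by 0.50 (SE 0.17, adjusted p = 0.181), and Mki67, for which Cb less F/M gave -1.03 (SE 0.40, adjusted p = 0.286). Both passed without F/M control replicate 1, at 0.62 (adjusted p = 0.0445) and -1.27 (adjusted p = 0.0849). At 3 months the difference for Top2a was 0.15 (SE 0.29, 95% interval -0.48 to 0.78) and for Mki67 0.28 (SE 0.46, 95% interval -0.70 to 1.26).

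Levels were also compared between the regions of control mice. Of the 10 members 6 were called in mice of 1 month, 5 in those of 2 and 6 in those of 3 months, against 36.9%, 39.3% and 37.7% of all genes. Mki67 was lower in Cb by log2 differences of -1.36 (SE 0.22), -1.60 (SE 0.26) and -2.05 (SE 0.33) and Top2a by -1.63 (SE 0.18), -1.68 (SE 0.25) and -1.92 (SE 0.22), with adjusted p-values between 2.07e-06 and 0.000137. At 3 months this stood for 2.62 ± 0.112 CPM of Mki67 in F/M and 0.628 ± 0.323 in Cb. Progenitor and precursor markers, which summed to 121 to 134 and 286 to 306 CPM in F/M controls of 3 months, summed to 57.0 to 59.9 and 143 to 153 CPM in Cb controls, and their part in the levels of Mki67 and Top2a was not tested. Both regions with the same replicate number share sex and genotyping label, the labels do not say whether they came from 1 mouse, and the tests between regions took all libraries as independent.

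The helicase subunits were split by region in the same way at every age. Mcm2 was higher in Cb by 1.13 (SE 0.17), 1.17 (SE 0.13) and 0.94 (SE 0.13) and Mcm5 by 0.94 (SE 0.14), 0.66 (SE 0.11) and 1.18 (SE 0.18), whereas Mcm6 was lower by -0.86 (SE 0.17), -0.96 (SE 0.15) and -0.76 (SE 0.14), all 9 of them called. The call of Mcm5 at 2 months was lost without F/M control replicate 1, where the difference of 0.57 was under the fold minimum. Mcm3 was called at no age, with differences of 0.34, 0.26 and 0.10. In controls of 3 months this meant 5.31 ± 0.190 CPM of Mcm2 in F/M and 10.2 ± 1.41 in Cb, and 10.3 ± 1.14 CPM of Mcm6 in F/M and 6.07 ± 0.906 in Cb.

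Ccnd1 was lower in Cb by -0.36, -0.57 and -0.74 (SE 0.14, 0.11 and 0.10), passing the fold minimum only at 3 months. Cdkn1a was called higher in Cb at 1 month alone, at 0.93 (SE 0.41, adjusted p = 0.0675), and that call was lost with DESeq2 and limma-voom (adjusted p = 0.136 and 0.132) and without F/M control replicate 1 or Cb control replicate 2 or 3. With the replicate number as a block shared by both regions it was 0.89 (adjusted p = 6.13e-06). At 2 months Cdkn1a (0.52) and Ccnd1 were under the fold minimum, and each passed it in 3 of 11 alternatives, all with 1 library left out, at 0.59 to 0.66 and -0.68 to -0.60. Ccna2 and Cdk1 were called at no age, although Ccna2 at 2 months (-0.56, adjusted p = 0.0199) passed the fold minimum without F/M control replicate 3, at -0.71 (adjusted p = 0.00565).

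**Figure D5:**
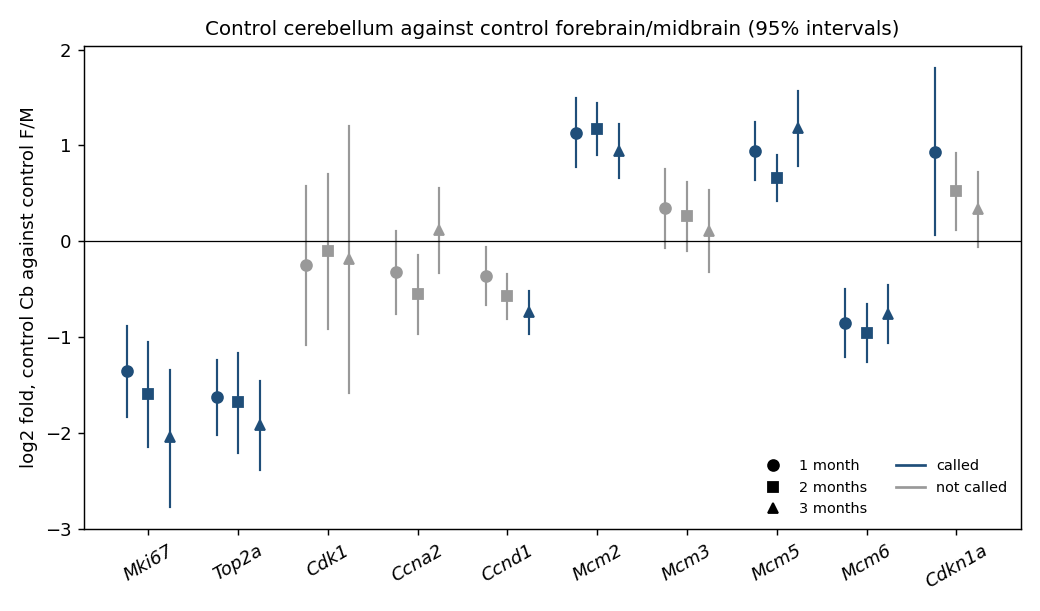
Log2 fold of control Cb against control F/M for each member at 1, 2 and 3 months, with 95% intervals, coloured by call. Mki67, Top2a and Mcm6 lie under 0 and Mcm2 and Mcm5 above 0 at all 3 ages.

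Levels per length order the members by role. Per kilobase of exon, F/M controls of 3 months held 11.8 CPM of Ccnd1 and 7.61 of Cdkn1a, then 2.20 of Mcm6, 1.28 of Mcm5, 0.763 of Mcm2, 0.681 of Mcm3 and 0.534 of Ccna2, and last 0.322 of Top2a, 0.260 of Mki67 and 0.0933 of Cdk1. In Cb controls of that age Cdkn1a led at 9.59, before Ccnd1 at 7.07 and Mcm5 at 2.88, and Top2a, Cdk1 and Mki67 stood last at 0.0850, 0.0775 and 0.0625, which is within the spread of their libraries. The brake and the G1 cyclin, which resting cells also express, were thus far above the genes of S phase and mitosis in both regions. The exon length listed for Cdkn1a was 3553 bases at 1 month and 2223 at 2 and 3 months, so its rank at 1 month cannot be set beside those of 2 and 3 months. Its lead in Cb at 3 months rests on the shorter length, and with the longer length it would stand below Ccnd1.

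Control levels of Mki67 and Top2a were higher at 1 month than later. In F/M, Mki67 measured 5.66, 6.39 and 5.43 CPM at 1 month and a mean of 2.81 ± 0.894 at 2 months and 2.62 ± 0.112 at 3 months, and Top2a 5.78 ± 0.339, 2.83 ± 0.0815 and 2.90 ± 0.136. In Cb, Mki67 measured 2.29 ± 0.471, 0.932 ± 0.146 and 0.628 ± 0.323 CPM and Top2a 1.86 ± 0.333, 0.905 ± 0.393 and 0.766 ± 0.154. Ccnd1 of F/M, by contrast, was 49.3 ± 5.60, 57.3 ± 8.84 and 55.7 ± 2.17 CPM. The ages were counted with different annotations and strand settings, so age and processing cannot be told apart, and no test was made.

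The 3 members with the smallest adjusted p in the comparisons of Tpp1-/- with control were taken. For each, the genes with the most similar pattern were looked up by Pearson correlation of log2 CPM over the 12 libraries of that age, after the mean of each region was taken off. Top2a at 2 months was nearest to Poldip3, Emp2 and Th (r = 0.93, 0.92 and 0.91), Mcm5 at 2 months to Ly6g6e, Eif2a and Enox2 (r = 0.91, 0.91 and 0.90) and Ccnd1 at 3 months to Carns1, Pacsin2 and Synpo (r = 0.89, 0.89 and 0.88). None of these 9 genes is a member or belongs to a cell cycle list. The libraries share depth and composition, and no p was computed.

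In the genome (GRCm38) the members lie on 8 chromosomes. Mki67 (ENSMUSG00000031004.8) and Ccnd1 (ENSMUSG00000070348.5) are on chromosome 7, at chr7:135689784-135716361 and chr7:144929931-144939925, and Mcm3 (ENSMUSG00000041859.10) and Mcm6 (ENSMUSG00000026355.11) on chromosome 1, at chr1:20802968-20820312 and chr1:128331590-128359664. Top2a (ENSMUSG00000020914.17) spans chr11:98992943-99024189, Cdk1 (ENSMUSG00000019942.13) chr10:69335146-69352938 and Ccna2 (ENSMUSG00000027715.9) chr3:36564865-36572150. Mcm2 (ENSMUSG00000002870.8) spans chr6:88883474-88898780, Mcm5 (ENSMUSG00000005410.6) chr8:75109569-75128439 and Cdkn1a (ENSMUSG00000023067.14) chr17:29090976-29100727. All 10 are protein coding, the values are sums over their exons, and all but Mcm5 and Cdkn1a lie on the minus strand.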

How the data were processed

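RNA of 36 libraries (12 groups of 3) was prepared with a stranded poly(A) kit, aligned to GRCm38/mm10 with STAR 2.5.2b and counted per gene by the authors, who deposited raw featureCounts counts. Per the file headers, the version, the GENCODE release and the strand setting differed between ages (1.6.3, M21 and 1 at 1 month, 1.6.2, M16 and 2 at 2 months, 1.6.2, M18 and 1 at 3 months), and the submitters' processing notes give featureCounts 1.26.1 instead. Genes were therefore tested within an age, and levels were not tested across ages.

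Counts were used as deposited. For each age the 12 libraries were fitted together with edgeR 4.0.16 (R 4.3.3, filterByExpr, TMM, quasi-likelihood F-test) with Benjamini-Hochberg adjustment over all genes tested. A gene was called at an adjusted p under 0.1 and a fold of at least 1.5. Differences of effect between regions, and between ages in a fit of all 36 libraries over genes shared by identifier, used the adjusted p alone. Standard errors are the size of the unshrunken log2 change over the square root of F, and intervals are centred on that unshrunken change. The printed log2 changes are those of edgeR with its prior count, so at low counts they can differ slightly from the centre of the interval. The fits were tested on simulated data. DESeq2 1.42.0, limma 3.58.1 (voom), other scalings and filters, marker scores or sex as covariates, a replicate block, fits of 6 libraries and leaving out each library were alternatives.

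The members and gene lists were chosen with earlier results of these data known. Named were the members, Tpp1, up to 4 called genes per list by adjusted p, or, where none was called, up to 2 by unadjusted p. For the 3 members with the smallest adjusted p between Tpp1-/- and control, the 3 genes with the most similar pattern were named too. Same-numbered control and Tpp1-/- libraries did not deviate together in every pair (correlations of -0.07 to 0.20), so numbers were not taken as pairs there. Of 18 pairs of same-numbered F/M and Cb libraries 4 correlated above 0.1 (-0.04 to 0.18), among them all 3 of controls at 1 month, so tests between regions were also run with the number as a block. Promoters are RefSeq entries on GRCm38.p6. Libraries of mice of other ages were not analysed here.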

Additional observations from a re-analysis of the deposited data

How the results depend on the processing

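Over 160 results for single members and 2694 alternatives, 2664 stayed on the same side of the threshold, 14 lost a call, 16 gained one and 0 reversed a call. Of the 2664, 166 changed sign without being called. The count of members called in F/M at 2 months was 1, and it was 0 at an adjusted p under 0.05, 0 with only the 6 libraries compared and 0 to 2 when 1 library was left out, with 2 without control replicate 1, where Mki67 joined Top2a at 0.64 (adjusted p = 0.0931). In F/M at 3 months it was 0, and 1 with only the 6 libraries compared. Differences of effect between regions at 2 months passed for 0 members, and for 0 to 2 when 1 library was left out. Differences between 2 and 3 months and between 1 and 3 months in Cb passed for 0 members, and for 0 to 1 when 1 library was left out. The cause of these changes was not tested.

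With a replicate block the members called numbered 1 in F/M at 2 months and 0 in the other 5 comparisons, and 6, 5 and 6 differed between control regions, so the block changed no count of members. Differences of effect between regions passed for 0 members at every age with the number as a block shared by both regions, where 5 of all genes passed at 1 month against 0 without it.

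Over all genes, 127 were called in F/M at 2 months, against 222 with no filter on low counts, 546 with no fold minimum, 64 at an adjusted p under 0.05, 38 with only the 6 libraries compared, and 325 and 614 with the marker scores as covariates. At 3 months 80 were called in F/M, against 189 with no filter, 46 with the midbrain and thalamus score and 309 with only the 6 libraries, and 148 in Cb, against 296 with no filter and 46 with only the 6 libraries. Leaving out 1 library moved the F/M count at 2 months to between 20 (without Tpp1-/- replicate 1) and 352 (without control replicate 1), that at 3 months to between 34 (without control replicate 2) and 66, and the Cb count at 1 month from 2 to 272 without Tpp1-/- replicate 3. Low counts limit Cdk1 in both regions, with as few as 3 reads in a library of F/M and 5 in Cb, and Mki67 and Top2a in Cb, with as few as 7 and 12 reads.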
